A study of Mus musculus with 12 samples.

Results

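The genes described here are the 9 genes behind the shared promoter complex of MHC class I and class II genes: the transactivators Ciita and Nlrc5, the RFX subunits Rfx5, Rfxank and Rfxap, the NF-Y subunits Nfya, Nfyb and Nfyc, and Creb1. They were taken by name, in a list drawn up with earlier results of these data known, and they are 9 of 55536 genes in the annotation. All 9 passed the filter of at least 10 counts in at least 4 libraries, which 17919 genes passed. All 9 also reached 10 counts in at least 6 of the 7 libraries without IFN-γ, so none passed the filter through IFN-γ alone.

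Total RNA was sequenced from mouse OPCs, oligodendrocyte precursor cells that proliferate and mature into the myelinating cells of the central nervous system, cultured from the brains of P4 to P6 pups. Ctr-OPCs were left untreated, Dexa-treated OPCs received 1 µM dexamethasone, a synthetic glucocorticoid, and IFN-γ-treated OPCs received 100 ng/ml of the cytokine IFN-γ, each for 48 h. All 3 groups had 4 libraries from different litters, with several brains pooled for each culture. Every sample carries the label EAE (experimental autoimmune encephalomyelitis) as its mouse model, although the cells came from young pups and were treated in the dish. The source name given for the samples is Sox10GFP+ OPCs, while the protocol names either sorting for this reporter or magnetic beads against CD140a without saying which was used for each sample. The reporter is switched on by Sox10-driven Cre and marks the whole oligodendrocyte lineage, so a sort on it alone does not separate OPCs from more mature cells.

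CIITA and NLRC5 are members of the NLR protein family that do not bind DNA themselves. They are recruited to a protein platform of RFX (RFX5, RFXANK and RFXAP), CREB and NF-Y that sits on conserved promoter elements, where CIITA switches on MHC class II genes and NLRC5 switches on MHC class I genes. These partners are made in nearly all cells, whereas Ciita is constitutively transcribed mainly in professional antigen-presenting cells and is induced by IFN-γ elsewhere.

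The 11 complete libraries held 19209063 to 52074652 reads in genes. The table of Dexa replicate 3 listed only 33.7% of the transcripts, which included all those of Ciita, Nfyb and Creb1 and not those of the other 6 members, so the fits over all genes hold 3 Dexa libraries. Libraries that share a replicate number deviated together, although the labels do not say that they share a litter, and DESeq2's Wald test with this number as a block served as the main test. In IFN-γ-treated OPCs against Ctr-OPCs, 29.2% of all genes tested passed an adjusted p of 0.05, 15.2% higher and 14.1% lower. In Dexa-treated OPCs against Ctr-OPCs, 2.57% of all genes passed.

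IFN-γ-treated OPCs held far more Ciita and Nlrc5 RNA than Ctr-OPCs, and the 7 partners differed little. Of the 9 members, IFN-γ raised 3 and lowered 0: Ciita, Nlrc5 and, by a small amount, Nfya. That count is 33.3% of the members, near the 29.2% of all genes tested that passed, of which 15.2% were higher. In Dexa-treated OPCs none of the 9 passed the test, with 0 also at an unadjusted p under 0.05 and 0 called by edgeR. Both comparisons use the same Ctr libraries, so they are not independent of each other. In bulk RNA, more cells with a transcript and more of it per cell cannot be told apart.

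Ciita was present at a trace level without IFN-γ. Its level in TPM (transcript abundance scaled for length and sequencing depth) was 0.205, 0.184, 0.209 and 0.268 in Ctr replicates 1 to 4, from 52 to 77 reads a library. In Dexa replicates 1 to 4 it was 0.302, 0.197, 0.208 and 0.319. In IFN-γ replicates 1 to 4 it was 39.4, 49.2, 34.8 and 39.4, from 5322 to 8358 reads a library. Every IFN-γ library lay above every other library, and the Ctr and Dexa libraries overlapped. The mean rose from 0.217 ± 0.036 TPM (SD, n = 4) to 40.7 ± 6.1 TPM (SD, n = 4). The log2 fold change of counts was 7.20 ± 0.16 (SE), or 147-fold with a 95% interval of 119 to 183, and edgeR's quasi-likelihood test with Benjamini-Hochberg adjustment gave an adjusted p of 8.5e-11. Within replicate numbers the log2 ratio of normalised counts was 7.22, 7.60, 7.03 and 6.81 for replicates 1 to 4. Replicates 3 and 4, whose sample titles share a prefix, were the lower pair.

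Nlrc5 was as low as Ciita in Ctr-OPCs and passed it in IFN-γ-treated OPCs. It stood at 0.235, 0.128, 0.115 and 0.205 TPM in Ctr replicates 1 to 4, which rest on only 16 to 42 reads a library. Dexa replicates 1, 2 and 4 held 0.252, 0.186 and 0.029 TPM, from 6 to 33 reads. IFN-γ replicates 1 to 4 held 71.2, 83.7, 73.0 and 78.1 TPM, from 12249 to 15028 reads. Again no IFN-γ library overlapped with any other, while the lowest Dexa library had too few reads to place it apart from the Ctr libraries. The log2 fold change was 9.46 ± 0.29 (SE), 702-fold with a 95% interval of 476 to 1036, and the adjusted p of edgeR's quasi-likelihood test was 2.9e-11. With counts scaled to a common transcript length the log2 fold change was 8.68.

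The gain of Nlrc5 exceeded that of Ciita in all 4 replicate numbers. The log2 ratio of Nlrc5 exceeded that of Ciita by 1.96, 1.44, 2.54 and 2.93 in replicates 1 to 4, a description of 4 pairs. On the TPM scale Nlrc5 over Ciita ranged from 0.548 to 1.14 in Ctr-OPCs and from 1.70 to 2.10 in IFN-γ-treated OPCs, so these ranges did not overlap. The TPM of both genes is a sum that includes short transcript models, which weigh more per read. The ratio in Ctr-OPCs carries the counting error of 16 to 77 reads a library for each gene.

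**Figure D1:**
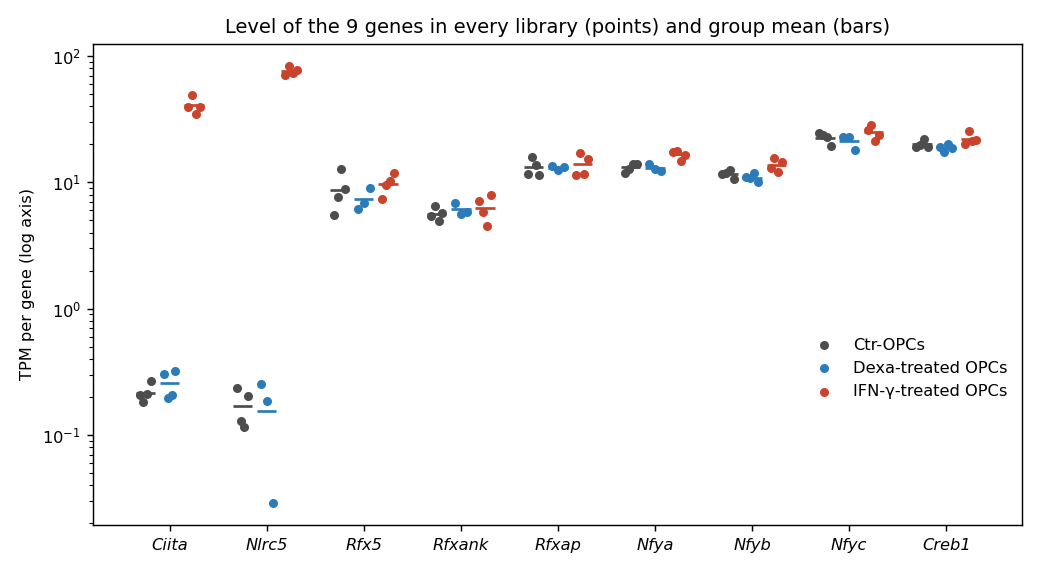
Level of the 9 genes in TPM on a log axis in each Ctr, Dexa and IFN-γ library (points) with the group mean (bars). TPM is summed over all annotated models of a gene, short ones included. Ciita and Nlrc5 moved from the bottom of the list in Ctr-OPCs, 0.217 and 0.171 TPM on average, to the top in IFN-γ-treated OPCs, 40.7 and 76.5 TPM, while the other 7 genes stayed between 4.50 and 28.7 TPM in every library.

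The order of the members by level changed at both ends. In Ctr-OPCs Nfyc was highest at 22.6 ± 2.2 TPM (SD, n = 4), followed by Creb1, Nfya, Rfxap, Nfyb, Rfx5 and Rfxank, with Ciita and Nlrc5 last. The libraries of Creb1 and Nfya did not overlap, nor did those of Rfxank and Ciita, whereas every other pair of neighbours in the Ctr order overlapped, Ciita and Nlrc5 included. In IFN-γ-treated OPCs Nlrc5 stood first at 76.5 ± 5.6 TPM (SD, n = 4) and Ciita next, without overlap between them or with Nfyc, which was the next gene at 24.97 ± 3.20 TPM. Ciita was 0.017 to 0.037 times the TPM of Rfx5 in Ctr-OPCs and 3.33 to 5.35 times in IFN-γ-treated OPCs.

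The RFX subunits were present in all groups and did not pass the test. On GRCm38, Rfx5 lies at chr3:94954075-94961561 (plus strand), Rfxank at chr8:70130794-70139154 (minus) and Rfxap at chr3:54803115-54807791 (minus). RFX5 carries the DNA-binding domain of the complex. Rfx5 held 5.54, 7.67, 12.7 and 8.93 TPM in Ctr replicates 1 to 4, and 7.35, 9.49, 10.3 and 11.8 TPM in IFN-γ replicates 1 to 4. The groups overlapped, and replicate 1 was the lowest library in each group. The log2 fold change was 0.00 with a 95% interval of -0.17 to 0.17. Rfxank, which codes for the ankyrin-repeat subunit, ranged from 4.94 to 6.47 TPM in Ctr-OPCs and from 4.50 to 7.90 TPM in IFN-γ-treated OPCs, and its log2 fold change was -0.10 (95% interval -0.29 to 0.08). The groups overlapped here as well.

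Rfxap, the remaining RFX subunit, had the lowest fold change of the members. Its normalised counts (counts divided by the size factor of a library) were 471, 545, 501 and 503 in Ctr replicates 1 to 4, and 365, 505, 449 and 438 in IFN-γ replicates 1 to 4. The IFN-γ library was the lower one in 4 of 4 pairs, but the groups overlapped. The log2 fold change was -0.21 ± 0.10 (SE) and did not pass (adjusted p 0.107 by DESeq2, 0.051 by edgeR). On the TPM scale the group means were in the other order, 13.1 ± 2.0 in Ctr-OPCs and 13.9 ± 2.8 in IFN-γ-treated OPCs (SD, n = 4 each), and with length-scaled counts the log2 fold change was -0.11 (adjusted p 0.591 in DESeq2).

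Nfya, which codes for the NF-Y subunit that contacts the CCAAT box, rose by a small amount. It lies at chr17:48386885-48409906 on the minus strand. Normalised counts were 1584, 1440, 1517 and 1528 in Ctr replicates 1 to 4 and 1842, 1715, 1810 and 1728 in IFN-γ replicates 1 to 4. Every IFN-γ library lay above every Ctr library. The log2 fold change was 0.23 ± 0.07 (SE), 1.17-fold with a 95% interval of 1.06 to 1.29 (adjusted p 0.0064 by DESeq2, 0.0079 by edgeR with the same block). This call was not stable: it was made in 12 of 18 alternatives and was lost with edgeR without the block (adjusted p 0.085), with length-scaled counts (0.157) and without Ctr replicate 1 (0.075), 2 (0.116) or 3 (0.084) or IFN-γ replicate 3 (0.074). The direction was the same in all 18.

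The other NF-Y subunits and Creb1 did not pass. NFYB and NFYC form the histone-fold pair of NF-Y, and their genes lie at chr10:82748701-82764144 and chr4:120757438-120831572, both on the minus strand, with Creb1 at chr1:64532645-64604548 on the plus strand. Nfyb ranged from 10.7 to 12.5 TPM in Ctr-OPCs and from 12.1 to 15.5 TPM in IFN-γ-treated OPCs, with a log2 fold change of 0.12 (95% interval -0.04 to 0.28). Nfyc ranged from 19.4 to 24.5 TPM and from 21.2 to 28.7 TPM in these groups, with a log2 fold change of 0.00 (95% interval -0.15 to 0.14). Creb1, the cAMP-responsive factor that binds the X2 element, ranged from 19.0 to 22.2 TPM and from 20.1 to 25.4 TPM, with a log2 fold change of 0.03 (95% interval -0.13 to 0.19). Over the 7 partners the 95% intervals together spanned -0.40 to 0.36, that is 0.757-fold to 1.29-fold, beside a median log2 fold change of -0.01 over all genes tested.

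**Figure D2:**
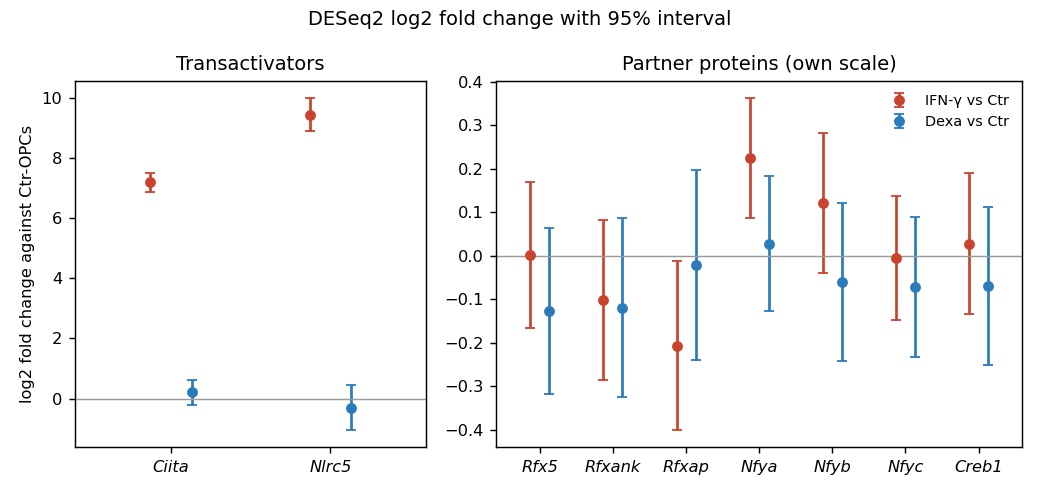
DESeq2 log2 fold change against Ctr-OPCs (points) with its 95% interval (bars) for IFN-γ and dexamethasone, with the transactivators on the left and the 7 partners on their own scale on the right. Ciita and Nlrc5 stand at 7.20 and 9.46 in IFN-γ-treated OPCs, and the partner farthest from 0 is Nfya at 0.23.

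No member passed the test with dexamethasone, although some Dexa libraries lay outside the range of the Ctr libraries. Ciita had a log2 fold change of 0.20 ± 0.21 (SE, 95% interval -0.21 to 0.62) and an adjusted p of 0.939, and the Dexa library was the higher one in 3 of 3 complete pairs, while Rfx5 and Rfxank were lower in 3 of 3. With the partial library included, which held 26 reads of Ciita, the value was 0.18 ± 0.19 (adjusted p 0.848 in DESeq2). Nlrc5 had a log2 fold change of -0.31 ± 0.38 (SE, 95% interval -1.06 to 0.44), an interval that allows a change of up to 0.481-fold or 1.36-fold. For the 7 partners the intervals lay between -0.33 and 0.20, so changes beyond 0.798-fold or 1.15-fold lie outside each of them. Against Dexa-treated OPCs, IFN-γ-treated OPCs again held more Ciita (128-fold), Nlrc5 (869-fold, 95% interval 536 to 1407) and Nfya (0.20 ± 0.08, adjusted p 0.043 in DESeq2), where 31.6% of all genes passed and 16.2% were higher. The Nfya call in that comparison was kept in only 4 of 18 alternatives.

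Ciita has alternative promoters with their own first exons, known as pI, pIII and pIV, of which pIV is the one described as responsive to IFN-γ. The annotation (Ensembl release 96, build GRCm38) does not name promoters. Its 8 Ciita models, on the plus strand of chr16:10480059-10528418, were grouped by starts within 500 bases, which gave 3 groups: the 5′-most (Ciita-205, Ciita-207 and Ciita-206, starts from 10480059 to 10480164), the middle (Ciita-202 and Ciita-201, from 10488178 to 10488279) and the 3′-most (Ciita-208, Ciita-203 and Ciita-204, from 10489746 to 10489783). The first 90 coding bases of 1 model per group are printed because the groups differ there, with bases of the first exon in capitals and bases of the exon that follows in lower case. They start at 10480144, 10488373 and 10489822.
Ciita-205: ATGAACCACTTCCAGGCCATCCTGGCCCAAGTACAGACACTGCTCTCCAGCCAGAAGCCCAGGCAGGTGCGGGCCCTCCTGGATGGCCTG
Ciita-201: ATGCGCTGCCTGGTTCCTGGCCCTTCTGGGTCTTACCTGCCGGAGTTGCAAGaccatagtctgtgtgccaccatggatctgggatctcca
Ciita-203: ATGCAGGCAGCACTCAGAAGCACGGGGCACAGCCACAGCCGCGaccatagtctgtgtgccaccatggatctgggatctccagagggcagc
Ciita-201 and Ciita-203 share the lower-case run, which opens the exon at 10501767, and differ before it by 52 and 43 coding bases. Ciita-205 holds 283 coding bases in its first exon, so all bases shown lie within it.

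**Figure D3:**
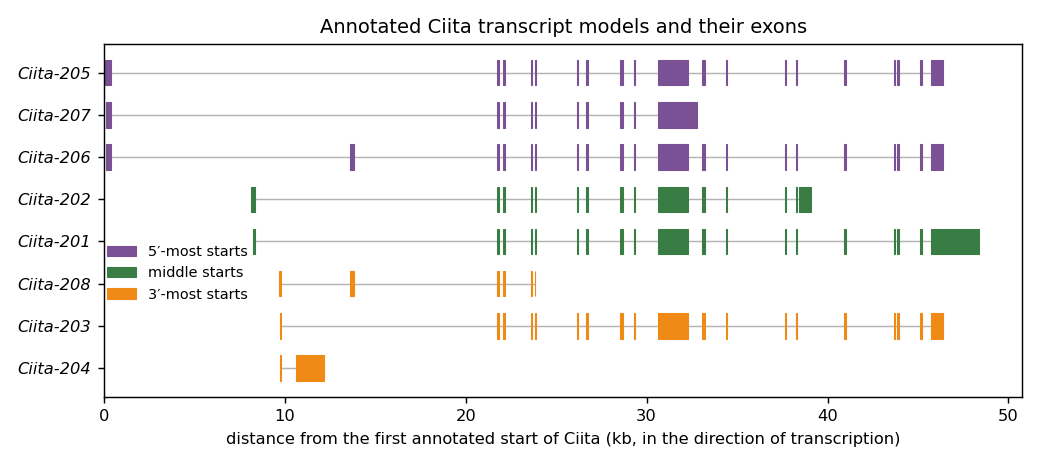
The 8 annotated Ciita models, exons as boxes and introns as lines, against the distance in kb from the first annotated start, coloured by start group. The models differ in the first exon and share most exons from 21708 bases after the first start onwards, so a read in the shared part is divided among models by Salmon.

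IFN-γ-treated OPCs held more reads of all 3 start groups, 16909 against 214 in the middle group and 9523 against 11 in the 3′-most group over 4 libraries each. Of 8 models 6 could be tested, and all 6 were higher in IFN-γ-treated OPCs, where 6.63% of the 53283 transcripts tested were higher. All but Ciita-201, that is 5 of the 6, had passed the filter only through the IFN-γ libraries, so their direction was set by the filter and the count supports nothing. Ciita-203 of the 3′-most group held at most 1 read in any Ctr library and 1370 to 2781 reads in the IFN-γ libraries, which is at least 880-fold higher when Ctr is set to the floor of 3 counts per library. Ciita-201 of the middle group held 33.3 to 60.0 reads in Ctr-OPCs and 3437 to 4993 in IFN-γ-treated OPCs, with a log2 fold change of 7.05 ± 0.20 (SE). Ciita-201 is the only model to extend to the end of the gene, with 1992 bases that no other model holds, whereas Ciita-203 has 0 bases of its own and 84 bases that no model outside its start group holds. The assignment error of Salmon is not part of these tests. Ciita-205 held 0 reads in all 12 libraries.

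The share of Ciita reads moved between start groups. In the 3′-most group it was 9.62%, 6.20%, 1.30% and 1.82% in Ctr replicates 1 to 4, which is 11 of 248 reads in all (4.44%, 95% Wilson interval 2.49 to 7.77). In Dexa replicates 1 to 4 it was 5.56%, 9.20%, 3.85% and 4.55%, and in IFN-γ replicates 1 to 4 it was 36.1%, 37.5%, 34.7% and 30.9%. The IFN-γ libraries were all higher than every other library. The middle group held the majority of reads in every library, 85.2% ± 9.9 in Ctr-OPCs and 62.8% ± 2.4 in IFN-γ-treated OPCs (SD, n = 4 each). The 5′-most group held 10.1% ± 6.2 and 2.37% ± 0.51. Shares of 1 gene sum to 100%, so these differences are not independent, and the gain of the 3′-most group was known before from these data. A share counts all reads assigned to the models of a group, also those far from its starts. Ciita-207, a retained-intron model with 503 bases of its own, held 585 of the 625 IFN-γ reads of the 5′-most group. Ciita-204, with 1538 bases of its own, held 9 of the 11 Ctr reads of the 3′-most group and 517 of its 9523 IFN-γ reads. With starts grouped within 100 bases, the middle group split into Ciita-202 and Ciita-201. Ciita-202, with 772 bases of its own and 0 coding bases, held 16.8% ± 10.3 in Ctr-OPCs and 1.66% ± 0.47 in IFN-γ-treated OPCs. Ciita-201 held 68.4% ± 7.2 and 61.2% ± 2.3 in these groups (SD, n = 4 each). The exact permutation test gave an unadjusted p of 0.029 for Ciita-202 and 0.086 for Ciita-201. Use of the starts themselves was not tested.

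The exact two-sided permutation test of 4 against 4 libraries, which does not use the replicate numbers, gave p = 0.029 for each of the 3 groups, the smallest it allows, and 0.043 after Benjamini-Hochberg adjustment over the 9 shares of Ciita and Nlrc5. That call sits at the threshold, and in the exact sign-flip test of the 4 pairs, which cannot go below p = 0.125, it was not made. With estimated reads rounded to whole numbers before the share was taken, an alternative chosen after seeing the data, the adjusted p of this exact test was 0.051 for the middle and 3′-most groups and 0.086 for the 5′-most group, and no share passed. The differences themselves hardly moved: 30.1 percentage points for the 3′-most group and -22.4 against -22.8 for the middle group. Intervals cover counting error only, since copies made by PCR cannot be told apart from separate molecules.

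**Figure D4:**
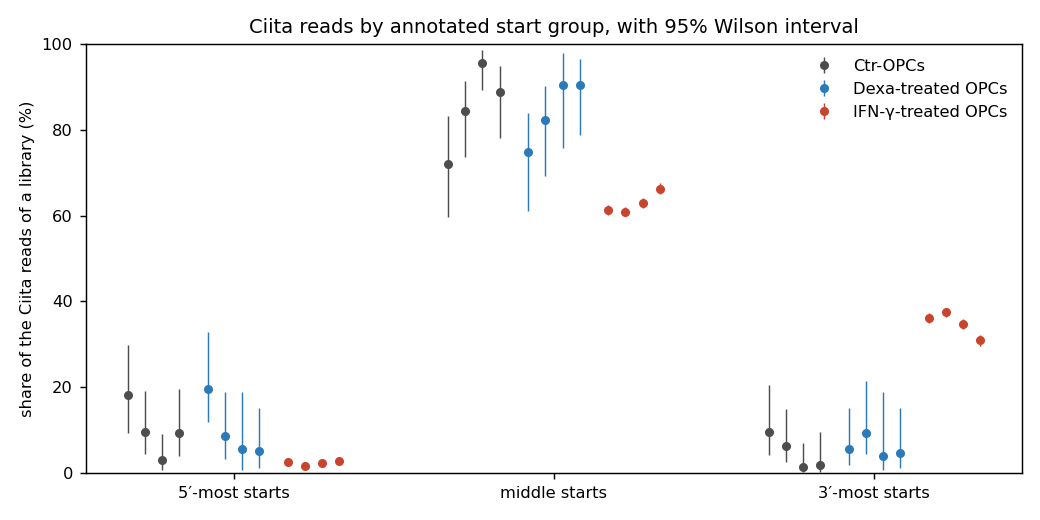
Share of the Ciita reads of each library (points, in percent) by annotated start group, with 95% Wilson intervals from reads rounded to whole numbers (bars). In the 3′-most group the 4 IFN-γ libraries sit between 30.9% and 37.5% and the 8 other libraries at or below 9.62%, while the wide bars of Ctr and Dexa libraries reflect 26 to 77 reads a library.

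Nlrc5 has 9 annotated models on the plus strand of chr8:94434356-94527272, in 6 start groups. Of these models 7 could be tested, and all 7 were higher in IFN-γ-treated OPCs, but 6 of the 7, all but Nlrc5-207, had passed the filter only through the IFN-γ libraries, which fixed their direction. The first start group, with Nlrc5-209, Nlrc5-207 and Nlrc5-208, held 88.7%, 93.4%, 93.9% and 93.9% of the reads in IFN-γ replicates 1 to 4. In Ctr replicates 1 to 4 it held 89.8%, 97.6%, 100% and 18.8%, the last from 3 of 16 reads. The groups overlapped and the exact permutation test gave an adjusted p of 0.886. The difference of 15.96 percentage points rests on that library and was -3.30 without it. In Ctr replicate 4, 80.6% of the 16 reads were assigned to the single model of the third start group, which has no base of its own, and in IFN-γ-treated OPCs less than 1 read in all was.

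For the start groups of Nlrc5-204, Nlrc5-205 and Nlrc5-203 with Nlrc5-202 the mean share in IFN-γ-treated OPCs was 3.004%, 0.538% and 2.90%, and in Ctr-OPCs it was at most 0.172%, where less than 1 of 113 reads fell on each of them. The exact permutation test gave an adjusted p of 0.043 for each, and 0.051 with rounded reads. All 3 means nevertheless lie under the 3.29% that 0 of 113 reads allows by the 95% Wilson interval, so a difference in these shares was not detectable at this depth. Of the Nlrc5 and Ciita models, only Nlrc5-204 passed in Dexa-treated OPCs, where 0.873% of all transcripts passed. It held 5, 10 and 0 reads in Dexa replicates 1, 2 and 4 and 0 reads in each Ctr library, with adjusted p values of 0.035 (DESeq2) and 0.780 (edgeR), and it passed in 5 of 14 alternatives.

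Reads of some members could be shared with genes on the opposite strand. The library kit keeps strand, but the strand setting used for Salmon is not given in the sources used here. Ciita shares 329 exonic bases (3.45% of its exonic bases) with Dexi, which rose by a log2 fold change of 1.59 ± 0.09. Nlrc5 shares 78 bases (0.918%) with 9330175E14Rik, which rose from 0.0049 ± 0.0058 TPM to 5.82 ± 0.70 TPM (SD, n = 4 each). Rfxank shares 1341 bases (33.8%) with Nr2c2ap, whose log2 fold change of 0.25 did not pass (adjusted p 0.103 in DESeq2), and Rfx5 shares 1471 bases (26.8%) with B230398E01Rik, which was not tested.

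The share of reads on models annotated as protein-coding was also read, a measure chosen after the values were seen and given with no test. For Ciita it was 73.1% ± 7.8 in Ctr-OPCs and 96.1% ± 0.8 in IFN-γ-treated OPCs (SD, n = 4 each). For Rfx5 it was 71.8% ± 3.7 in Ctr-OPCs, 60.9% ± 12.5 in Dexa-treated OPCs (SD, n = 3) and 59.7% ± 8.0 in IFN-γ-treated OPCs. For the NF-Y subunits and Creb1 the group means of this share lay between 86.3% and 96.4%.

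The genes that lead from the IFN-γ receptor to the Ciita and Nlrc5 promoters were mostly higher in IFN-γ-treated OPCs. Of the 11 genes on this list, 8 were higher, 2 were lower and 1 did not pass, with a median log2 fold change of 1.16. Over all genes tested, 15.2% were higher and 14.1% lower. The largest changes were those of Irf8 (6.78 ± 0.13), Socs1 (6.09 ± 0.19) and Irf1 (6.02 ± 0.08), where IRF1 and IRF8 are transcription factors induced by IFN-γ and SOCS1 is a feedback inhibitor. Irf1 rose from 4.10 ± 0.56 to 276 ± 32 TPM (SD, n = 4 each). Of the E-box factors, Usf1 rose by 0.47 ± 0.08 and Usf2 fell by 0.24 on the log2 scale (adjusted p 0.020 in DESeq2, called in 12 of 18 alternatives). Of the receptor genes, Ifngr1 fell by 0.28 (adjusted p 0.020 in DESeq2, called in 12 of 19 alternatives) and Ifngr2 stood at -0.07 ± 0.09. Usf1 and Ifngr1 lie outside the rule for named genes and were chosen after their values were seen, to stand beside their partners. None of the 11 passed in Dexa-treated OPCs.

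The MHC class I pathway genes, the genes that NLRC5 acts on, were all higher in IFN-γ-treated OPCs. All 14 passed, beside 15.2% of all genes tested that were higher, with log2 fold changes from 4.10 to 8.79 and a median of 6.18. Of the 14, 1 had passed the filter only through the IFN-γ libraries. The immunoproteasome gene Psmb8 rose from 0.860 ± 0.221 to 451 ± 42 TPM and Psmb9 from 0.351 ± 0.096 to 131 ± 10 TPM (SD, n = 4 each). H2-T23 rose by 7.86 ± 0.16 on the log2 scale, while Tapbp, the tapasin gene, and H2-T22 had the smallest changes at 4.10 ± 0.15 and 4.27 ± 0.12. H2-Q6 had 8.79 ± 0.43 from at most 7 reads in a Ctr library, but the H2-Q genes are near-identical copies between which Salmon may split reads, so their single values are uncertain. None of the 14 passed in Dexa-treated OPCs.

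The MHC class II pathway genes, the genes that CIITA acts on, were also higher where they could be tested. Of 9 genes on the list 6 could be tested, and all 6 were higher, beside 15.2% of all genes tested, with a median log2 fold change of 9.30. H2-DMb2, H2-Oa and H2-Ob were under the filter, and 3 of the 6 passed the filter only through the IFN-γ libraries, so the count says little about the list as a whole. H2-Aa rose from 0.148 ± 0.046 to 172 ± 30 TPM, H2-Eb1 from 0.364 ± 0.148 to 277 ± 36 TPM and the invariant chain gene Cd74 from 0.073 ± 0.046 to 46.6 ± 11.9 TPM (SD, n = 4 each). H2-DMb1, which codes for a chain of the peptide-loading factor DM, went from 0.035 ± 0.015 TPM, at most 3 reads a library, to 24.5 ± 8.7 TPM. H2-DMa, its partner chain, had the smallest change at 5.12 ± 0.13 on the log2 scale, from 2.79 ± 0.66 TPM in Ctr-OPCs, and H2-Ab1 rose by 8.09 ± 0.31. None passed in Dexa-treated OPCs.

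**Figure D5:**
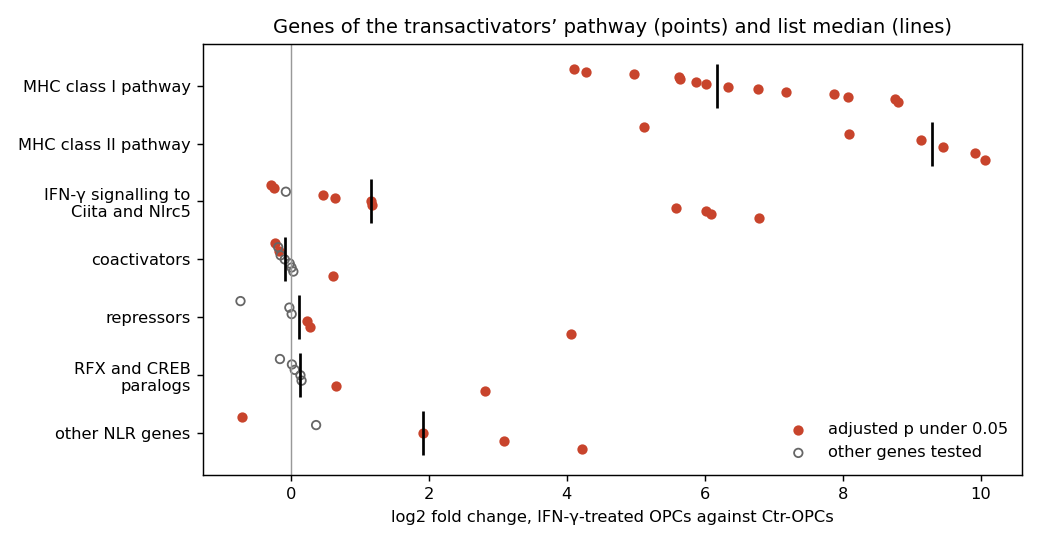
DESeq2 log2 fold change in IFN-γ-treated OPCs against Ctr-OPCs for the tested genes of each list (points, filled where the adjusted p was under 0.05) with the list median (lines). The medians of the class I and class II pathway genes stand at 6.18 and 9.30, the latter with 3 of 6 genes that passed the filter only through IFN-γ, and those of coactivators, repressors and RFX and CREB paralogs lie between -0.09 and 0.14.

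The promoters of target genes were searched for the letters that the partners are known to bind. RefSeq promoter windows, 250 bases before to 50 bases after a start on GRCm38.p6, were matched by symbol to 6 of the 9 members, all but Ciita, Nlrc5 and Rfxap. The motif CCAAT, the letters NF-Y contacts, was searched on both strands and lay in 13 of 14 windows of class I and 7 of 8 windows of class II pathway genes, against 37.4% of all 32851 windows. TGACGTCA, the full CREB site, lay in 0 of 14 and 1 of 8, against 1.79% of all windows. TGATGA, chosen after the promoters had been read, lay in 6 of 14 and 3 of 8, against 12.4%. The 140 bases before the start are printed for some class II genes, some class I genes and Rfx5, with matches to these motifs on either strand in capitals. They cover chr17:34287824-34287963 (minus strand) for H2-Aa, chr17:34305727-34305866 (plus) for H2-Eb1, chr17:34153051-34153190 (plus) for H2-DMb1, chr17:35262954-35263093 (plus) for H2-D1, chr2:122147547-122147686 (plus) for B2m and chr3:94953968-94954107 (plus) for Rfx5.
H2-Aa: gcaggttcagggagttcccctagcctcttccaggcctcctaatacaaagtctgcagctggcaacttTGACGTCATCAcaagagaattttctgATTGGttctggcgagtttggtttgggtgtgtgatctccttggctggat
H2-Eb1: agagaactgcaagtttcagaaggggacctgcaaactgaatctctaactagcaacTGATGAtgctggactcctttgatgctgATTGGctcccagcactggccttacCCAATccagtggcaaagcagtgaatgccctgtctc
H2-DMb1: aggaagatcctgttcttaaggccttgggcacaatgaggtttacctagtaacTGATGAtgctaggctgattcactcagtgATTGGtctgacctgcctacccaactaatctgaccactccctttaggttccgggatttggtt
H2-D1: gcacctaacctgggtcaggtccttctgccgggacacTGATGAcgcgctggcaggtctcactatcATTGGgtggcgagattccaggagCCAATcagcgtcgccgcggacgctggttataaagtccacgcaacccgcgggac
B2m: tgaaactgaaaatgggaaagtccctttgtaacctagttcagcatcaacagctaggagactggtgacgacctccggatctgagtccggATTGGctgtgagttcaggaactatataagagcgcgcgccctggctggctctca
Rfx5: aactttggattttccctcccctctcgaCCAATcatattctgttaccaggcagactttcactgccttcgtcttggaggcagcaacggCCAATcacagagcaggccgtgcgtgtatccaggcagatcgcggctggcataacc
In H2-Aa the CREB site and TGATGA, read on the other strand, share bases. The class II promoters printed are the 3 with TGATGA and include the 1 with the CREB site, so they do not stand for the list. The windows of H2-DMa, H2-DMb2, H2-Oa and H2-Ob held neither motif. Among the members, CCAAT lay in 5 of the 10 windows, the IRF motif AAANNGAAA in 1 (10.6% of all windows) and the E box CACGTG in 0 (7.15%). A match is a description of letters, not of binding.

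Coactivators and repressors that act with or on CIITA showed smaller differences. Of 9 coactivator genes, 1 was higher and 2 were lower, with a median log2 fold change of -0.09. Over all genes tested 29.2% passed, 15.2% higher and 14.1% lower, and the count of coactivators called is near the 29.2%. Kat2b, a histone acetyltransferase gene, rose by 0.61 ± 0.09, while Ncoa1 fell by 0.23 on the log2 scale and Crebbp fell by 0.17. Crebbp passed in 5 of 19 alternatives and Ncoa1 in 12 of 19, whereas Smarca4 and Ccnt1 stood at -0.02 ± 0.06 and 0.01 ± 0.07. Of 6 repressor genes, 3 were higher: Prdm1, which codes for BLIMP-1, went from 0.058 ± 0.066 TPM, 2 to 41 reads a library, to 0.511 ± 0.093 TPM (log2 fold change 4.05 ± 0.89), Hdac1 rose by 0.28 ± 0.07 and Ezh2 by 0.23 ± 0.08. Prdm1 had passed the filter only through the IFN-γ libraries. The adjusted p of Ezh2 was 0.027 in DESeq2 with the block and 0.378 without it, and Hdac2 and Sin3a stood at 0.01 ± 0.07 and -0.02 ± 0.06.

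Among relatives of the members, 2 of 7 tested RFX and CREB paralogs were higher. These were the only paralogs called, beside 29.2% of all genes tested that passed and 15.2% that were higher. Crem, a relative of Creb1, rose from 2.78 ± 0.50 to 26.4 ± 5.4 TPM (SD, n = 4 each, log2 fold change 2.81 ± 0.11). Rfx4 rose by 0.65 ± 0.10, a call lost without the block (adjusted p 0.452 in DESeq2), and Rfx1 and Rfx3 stood at 0.02 ± 0.10 and 0.06 ± 0.08. Of 15 other NLR family genes only 5 passed the filter, 3 of them higher and 1 lower. Nod1 and Nod2, sensors of bacterial cell walls, rose by 4.22 ± 0.21 and 3.09 ± 0.49, Naip2, which had passed the filter only through the IFN-γ libraries, by 1.91 ± 0.59 from 0.019 TPM, and Nlrx1 fell by 0.71. Nlrc3 stood at 0.37 ± 0.43. None of these paralogs or NLR genes passed in Dexa-treated OPCs, and neither did any coactivator or repressor.

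Around Ciita, 7 of the 9 tested protein-coding genes within 500 kb were higher in IFN-γ-treated OPCs and 0 lower, out of 17 annotated. Over all genes tested these shares were 15.2% and 14.1%. The largest were Socs1 (6.09 ± 0.19), Tvp23a (4.92 ± 0.10), Rmi2 (1.83 ± 0.20) and Dexi (1.59 ± 0.09). Within 500 kb of Nlrc5, 3 of 22 tested genes were higher and 7 lower, out of 28 annotated, the former near the 15.2% of all genes that were higher. The called neighbours with the largest changes there were Pllp, which fell by 1.49, the chemokine gene Cx3cl1 (1.33 ± 0.13), the metallothionein gene Mt2 (0.89 ± 0.15) and Gnao1, which fell by 0.67. Without the block the calls of Pllp, Mt2 and Gnao1 were lost (adjusted p 0.160, 0.147 and 0.125 in DESeq2) and that of Cx3cl1 was kept. In Dexa-treated OPCs 1 neighbour of Ciita was lower (Litaf, which fell by 0.45) and 3 neighbours of Nlrc5 were higher (Mt2, Mt1 and Mt3, at 1.63, 1.02 and 0.80), where 2.57% of all genes passed. Without the block Litaf, Mt1 and Mt3 were not called in DESeq2, and Mt3 did not pass in edgeR with the block (adjusted p 0.059).

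The genes whose pattern over the 11 complete libraries was most like that of Ciita, by Pearson's r of log2 normalised counts, were Igtp, Il18bp, Gbp2, Gbp4 and Gm49730, with r between 0.9971 and 0.9976. For Nlrc5 they were Irf1, Irgm1, Tapbpl, Irf8 and Serping1, with r between 0.9978 and 0.9984. Ciita and Nlrc5 had r = 0.9889 with each other, and 77 and 105 genes reached r of 0.99 with them. The points fall into 4 IFN-γ libraries and 7 others, so r carries the step between them and is a description. By Spearman's measure 0 of the 5 genes for Ciita and 1 of the 5 for Nlrc5 would have been listed.

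Markers of the labelled cell type and of other cells were read in the same libraries. The 10 OPC markers were all detected, with summed levels of 868 to 2050 TPM in Ctr-OPCs and 704 to 1579 TPM in IFN-γ-treated OPCs, and 7 of 10 were lower in the latter, led by C1ql1 (-2.37 ± 0.15) and Gpr17 (-2.09 ± 0.14). Over all genes tested, 14.1% were lower. Olig1 and Olig2 stood at -0.09 ± 0.11 and -0.17 ± 0.07, and in Dexa-treated OPCs Cspg4 rose by 0.65 ± 0.10. Of 7 oligodendrocyte markers 2 were lower, Myrf (-1.63 ± 0.35) and Cnp (-0.65 ± 0.10), while Mog and Mobp held 0.117 and 0.138 TPM with IFN-γ. Without the block the calls of Gpr17, Myrf and Cnp were lost (adjusted p 0.144, 0.059 and 0.379 in DESeq2), as was that of Cspg4 with dexamethasone. The called OPC markers next in size after Gpr17 were lost as well (adjusted p 0.180 and 0.442 in DESeq2), while C1ql1 was kept (0.0091). The 15 microglia markers summed to 0.761 to 1.64 TPM in Ctr-OPCs and 1.28 to 2.23 TPM in IFN-γ-treated OPCs, of which Cd68 gave up to 1.17, only 3 could be tested and 0 passed. Of 10 lymphoid and dendritic markers only Zbtb46 could be tested, and it did not pass (-0.21 ± 0.11), while Cd3e and Cd3d had 0 reads in all IFN-γ libraries and Ms4a1 in all Ctr libraries. Several genes of these lists that could not be tested had higher means with IFN-γ, among them Aif1 (0.019 ± 0.023 and 0.115 ± 0.095 TPM), C1qa (0.013 ± 0.015 and 0.072 ± 0.054 TPM), C1qb (0.0035 ± 0.0070 and 0.060 ± 0.046 TPM) and Cd79a (0.050 ± 0.010 and 0.092 ± 0.044 TPM, SD, n = 4 each), chosen after their values were seen. Others had lower mean normalised counts with IFN-γ, among them C1qc (1.08 and 0.878), Fcrls (2.18 and 1.35), Flt3 (2.84 and 1.51) and Xcr1 (2.85 and 1.74), chosen in the same way. All of these genes rest on a few reads a library. The summed levels of the microglia list and of the lymphoid and dendritic list exceed the Ctr levels of Ciita and Nlrc5, but each sum is mostly 1 gene. The lymphoid and dendritic markers summed to 2.23 to 2.99 TPM in Ctr-OPCs, where Zbtb46 held 2.15 to 2.88 TPM, and Cd68 of the microglia list held 0.472 to 1.04 TPM.

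Markers of astrocytes and neurons did move. Of 8 astrocyte markers IFN-γ raised 4 and lowered 3, with summed levels of 126 to 342 TPM in Ctr-OPCs and 263 to 436 TPM in IFN-γ-treated OPCs. Over all genes tested, 15.2% were higher and 14.1% lower. Gfap went from 0.154 ± 0.124 to 2.50 ± 0.95 TPM (SD, n = 4 each), Aldoc rose by 0.88 ± 0.15, and Fgfr3, Aqp4 and Gja1 fell by 0.98, 0.81 and 0.36. Without the block the calls of Fgfr3, Aqp4 and Gja1 were lost (adjusted p 0.061, 0.208 and 0.823 in DESeq2). Slc1a2 stood at 0.35 ± 0.15. In Dexa-treated OPCs Gfap (1.64 ± 0.38), Aldoc (0.98 ± 0.16) and the neuronal gene Snap25 (0.67 ± 0.14) were higher, of which Gfap did not pass in edgeR (adjusted p 0.108). Without the block none of them passed in DESeq2, with an adjusted p of 0.302 for Gfap and 0.061 for Aldoc. Of 7 tested endothelial and neuronal markers, Tubb3 (1.52 ± 0.16) and Syt1 (1.11 ± 0.18) were higher with IFN-γ and Snap25 fell by 0.46, while Cdh5 and Rbfox3 did not pass. The fall of Snap25 was not called without the block (adjusted p 0.439 in DESeq2). The part of other cells in the levels of Ciita and Nlrc5 was not tested.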

How the data were processed

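Salmon 0.8.2 was run by the authors on each library, which gives per transcript an estimated count and a TPM value, and both were used as deposited. Per the labels, libraries were strand-specific, depleted of ribosomal RNA and read from both ends. Transcript identifiers match Ensembl release 96 (GENCODE mouse release 21, GRCm38), with 0 transcripts lacking a gene, while the study's methods name release 75 for STAR. The authors also deposited 3 DESeq2 tables, which hold a mean normalised count, log2 fold change, SE, statistic and p-values per gene, 1 of them without a header, and which were not used. The table of Dexa replicate 3 ends after 47855 of 141862 transcripts, and its 19130 whole genes entered only a separate 12-library fit.

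Estimated counts were summed per gene and rounded. Genes or transcripts with at least 10 counts in at least 4 of the 11 complete libraries were fitted with DESeq2 1.42.0 (R 4.3.3; Wald test, replicate number as a block, Benjamini-Hochberg over all features tested, calls at an adjusted p under 0.05). The labels say that replicates came from different litters, not that a number marks 1 litter; the numbers were taken as pairs because deviations of libraries with the same number correlated at 0.500 to 0.869, against -0.804 to 0.695 for different numbers. Libraries of 1 group all differed by more than counting noise (chi-square divided by its degrees of freedom, 22 to 223). Alternatives were edgeR 4.0.16, fits without the block, TMM factors, other filters, length-scaled counts and leaving out each library. Pair ratios and likeness used a pseudocount of 1. Start-group shares were compared by exact permutation (scipy 1.17.1) of 4 against 4 libraries. Scripts were tested on simulated data, where DESeq2 with the block made more false calls than its threshold allows. EdgeR with the block made fewer than DESeq2, but it too went above the threshold. Calls near the threshold by either tool and the shares of genes called by DESeq2 are to be read with that excess. The 9 genes and all lists were chosen with earlier results of these data known. Named from each list were up to 4 called genes with the largest change, the 2 with the smallest and those called with dexamethasone. From the neighbours up to 4 called genes were named, and the 5 genes most like Ciita or Nlrc5. A called gene that this rule named is not reported here.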

Additional observations from a re-analysis of the deposited data

Results flagged for a closer look

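In 6 of 42 groups of 4 libraries examined, 1 library stood apart from the other 3 by Dixon's criterion, which chance meets in about 1 in 20 groups. All 6 are read shares of Nlrc5 start groups. In Ctr-OPCs, where Nlrc5 had only 16 to 42 reads a library, all 4 flags fall on replicate 4: it held 18.8% of its reads in the first start group and 80.6% in the third, and it was the only Ctr library above 0 in the second and the sixth, at 4.32e-05% and 0.689%. These last values stand for far less than 1 read, since Salmon divides reads among models. Where all other libraries of a group hold 0, any value above 0 meets the criterion. Shares of 1 gene also depend on each other, so the count of flags cannot be set against the rate of chance. In IFN-γ-treated OPCs, replicate 1 stood apart with 88.7% in the first start group and 6.88% in the second, where the other 3 libraries held 93.4% to 93.9% and 1.13% to 2.07%. No level of a member in TPM was set apart in this way.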

How the results depend on the processing

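The calls of Ciita and Nlrc5 against Ctr-OPCs and against Dexa-treated OPCs were made in every alternative run. The count of genes called fell from 5238 (IFN-γ against Ctr), 460 (Dexa against Ctr) and 5662 (IFN-γ against Dexa) to 2302, 98 and 2345 without the replicate block, to 1513, 22 and 1571 with edgeR without it, and to 1976, 227 and 2343 in the 12-library fit, which tests fewer genes. EdgeR with the block called 282 genes with dexamethasone. Leaving out 1 library gave 189 to 546 genes with dexamethasone and 3721 to 5230 for IFN-γ against Dexa.

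Nfya against Ctr-OPCs was 0.2283 with edgeR without the block and 0.1638 with length-scaled counts, neither called, and 0.2095 to 0.2548 with a library left out. Against Dexa-treated OPCs it was 0.2007 (no block), 0.2060 (edgeR, no block) and 0.1676 (length-scaled), none called, and 0.1432 to 0.2302 with a library left out. Signs turned only in values that had not passed. With length-scaled counts Creb1 was -0.0341 (IFN-γ against Ctr), Rfxank 0.0252 and Nfya -0.0038 (Dexa against Ctr) and Rfxank -0.0624 (IFN-γ against Dexa), which was also -0.0284 and -0.0253 without the block in DESeq2 and edgeR. Of transcripts with dexamethasone, Nlrc5-209 was 0.0434 and Nlrc5-203 -0.063 in edgeR with the block, and Nlrc5-208 was 0.0415 without it. With a library left out, Rfx5 ranged from -0.0627 to 0.0595, Nfyc from -0.0380 to 0.0344 and Creb1 from -0.0260 to 0.0964 (IFN-γ against Ctr), Rfxap from -0.0746 to 0.0311, Nfya from -0.0046 to 0.0801 and Nfyb from -0.0958 to 0.0090 (Dexa against Ctr), and Rfxank from -0.0359 to 0.0978 (IFN-γ against Dexa). For transcripts with dexamethasone these ranges were -0.0674 to 0.3500 for Ciita-201, -0.2321 to 0.6730 for Ciita-202, -0.5226 to 0.9275 for Ciita-204, -0.2981 to 0.5597 for Ciita-207, -0.7783 to 0.4557 for Nlrc5-208 and 0 to 3.0268 for Nlrc5-205.

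Called genes went from 3 to 1 for coactivators and from 2 to 1 for paralogs without the block in either tool, from 3 to 1 (DESeq2) and 0 (edgeR) for repressors, and from 4 to 2 for NLR genes at a minimum of 50 counts. With dexamethasone 1 class I gene was called with length-scaled counts. Leaving out a library gave 1 to 4 coactivators, and 0 to 1 class I and class II genes with dexamethasone.

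For the start-group shares, the block was used in an exact sign-flip test of 4 pairs, which cannot go below p = 0.125. The differences in percentage points were then -7.6841, -22.3847 and 30.0688 for Ciita and 3.0044, 0.5384 and 2.7307 for the Nlrc5 groups 2, 4 and 6. With rounded reads, added after seeing the data, they were -7.2204, -22.8333, 30.0578, 3.0035, 0.5388 and 2.9012, and no share passed. With a library left out they ranged from -10.0166 to -4.9506, -26.7459 to -18.9077, 28.9243 to 31.6965, 1.7112 to 3.6302, 0.4944 to 0.5706 and 2.6243 to 2.9486, where 3 against 4 libraries cannot pass. Nlrc5 group 1 was -7.9925 by share of TPM and ranged from -3.3043 to 23.7790, and group 5 from -1.8023 to 0.2682, with a library left out. The cause of these changes was not tested. Low Ctr and Dexa reads of Ciita and Nlrc5 limit all transcript shares.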
